A study of Homo sapiens with 9 samples.

Results

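The 10 genes described here are established target genes of the transcriptional coactivator YAP and its DNA-binding partners, the TEAD factors: CYR61 (also named CCN1), CTGF (CCN2), ANKRD1, AMOTL1, AMOTL2, LATS2, AJUBA, AXL, TEAD1 and TEAD4. They form a list of gene names with no limit set on their values, drawn up with earlier results of these data known, and all 10 were found among the 16199 genes listed in at least 1 library. RNA was sequenced from HaCaT cells, an immortalized human keratinocyte line carried here as wild type, in 3 groups of 3 replicates. Untreated cells were kept in serum-free medium, and treated cells received EGF (10 nM) or bleogen pB1 (1 µM), a cysteine-rich plant peptide that acts on the EGF receptor, for 24 h once the cultures were confluent. All groups come from the same cell line, and no source states whether the replicates were separate cultures, so the p-values measure the spread between these libraries, which may be technical.

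YAP and its paralogue TAZ (the product of WWTR1) carry no DNA-binding domain and switch on genes by joining TEAD proteins at DNA. The Hippo kinase cascade, in which the MST kinases activate LATS kinases, phosphorylates both coactivators and keeps them out of the nucleus, and dense, confluent culture is known to favour that state. Several targets feed back on the pathway: LATS2 is itself an inhibiting kinase, the angiomotins AMOTL1 and AMOTL2 bind YAP at junctions, and AJUBA restrains LATS kinases.

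The libraries held between 20288417 and 21320994 expected counts, an estimate of the fragments that belong to each gene. A floor of 3 counts lay at 0.141 to 0.148 CPM, a count normalised for library size, and covers counting error only. Levels of different genes are compared below in FPKM, which divides the fragments by gene length and depth. The 10 markers of keratinocytes summed to 13481 to 14710 CPM without treatment, 11785 to 12094 CPM with EGF and 12952 to 15241 CPM with bleogen pB1, and all 10 were above the floor in every library. The 7 fibroblast markers summed to 7.61 to 9.31, 1.30 to 2.00 and 6.08 to 9.17 CPM in the same order, with PDGFRA at 0 in every untreated and bleogen pB1-treated library, and the 4 endothelial markers to 3.44 to 4.77, 0.289 to 0.503 and 1.16 to 1.91 CPM, with KDR at 0 in every untreated and EGF-treated library. The 3 melanocyte markers stayed at or under 1.58 CPM and the 3 immune markers at or under 0.344 CPM in every library. Fibroblast and endothelial marker levels were thus low throughout and lowest with EGF, and their part in the results below was not tested. Mean COL3A1 went from 4.87 to 0.611 CPM and mean COL1A1 from 2.96 to 0.926 CPM with EGF. By the rule for calls given below, all 3 fibroblast markers tested (COL1A1, COL3A1 and DCN) fell with EGF. So did the 2 endothelial markers tested, VWF and CDH5. CDH5 also fell with bleogen pB1, from a mean of 2.72 to 0.534 CPM. In bulk RNA, fewer cells of a type and less RNA per cell cannot be told apart. The keratinocyte sum hides opposite shifts, as 6 of the 10 markers were higher and 4 lower with EGF than without treatment. Mean KRT5 went from 7809 to 3603 CPM and mean KRT14 from 1578 to 2907 CPM.

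In untreated cells the members spanned more than an order of magnitude per length. AMOTL2 was the highest at 48.6 ± 0.492 FPKM (mean ± SD, n = 3 for this and the following levels). AJUBA, a LIM-domain scaffold protein of cell junctions, followed at 43.9 ± 0.332 FPKM, and CYR61, a secreted matrix protein, at 28.8 ± 0.445 FPKM. The 2 transcription factors came next, with TEAD4 at 23.9 ± 0.739 FPKM and TEAD1 at 13.7 ± 0.420 FPKM. TEAD1 and AMOTL1 (13.1 ± 0.809 FPKM) were the only neighbours in this order whose libraries overlapped. LATS2 stood at 6.40 ± 0.217 FPKM and AXL, a receptor tyrosine kinase, at 4.96 ± 0.681 FPKM. The lowest were CTGF, a secreted relative of CYR61, at 2.09 ± 0.0624 FPKM and ANKRD1, a nuclear ankyrin-repeat protein, at 1.53 ± 0.192 FPKM. CTGF and ANKRD1 serve as readouts of YAP activity in many cell types, yet here they rested on 53 to 102 counts per untreated library, so that their fold changes are the least precise of the 10.

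**Figure D1:**
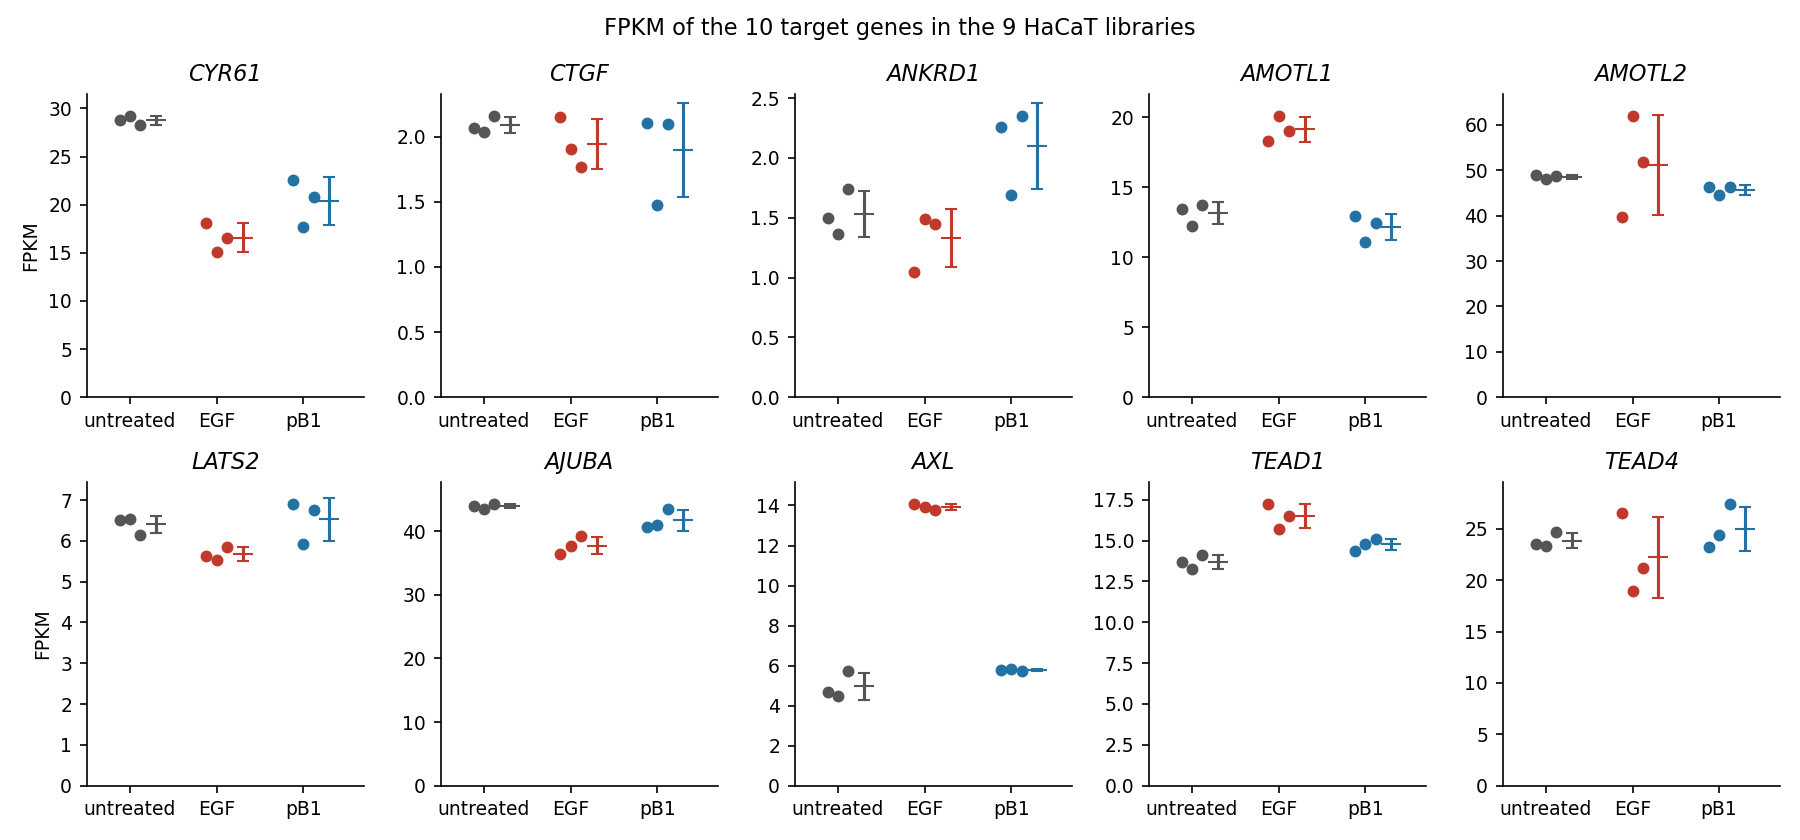
FPKM (vertical axis, starting at 0, 1 scale per gene) of the 10 target genes in each of the 9 libraries, with points for single libraries and bars for mean ± SD (n = 3). AXL with EGF lies between 13.8 and 14.1 FPKM, far above the other 6 libraries, and CYR61 lies below its untreated level in all 6 treated libraries.

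The promoters of CTGF and ANKRD1 are shown because they hold the most matches to the core of the TEAD binding motif, GGAATG, searched on both strands (its reverse complement is CATTCC). The letters come from RefSeq on GRCh38.p14, with positions counted back from the start of transcription, and the capitals mark the matches. The first sequence is the 250 bases upstream of CTGF on the minus strand (chr6:131951373-131951622) and the second the 250 bases upstream of ANKRD1 on the minus strand (chr10:90921088-90921337).
CTGF: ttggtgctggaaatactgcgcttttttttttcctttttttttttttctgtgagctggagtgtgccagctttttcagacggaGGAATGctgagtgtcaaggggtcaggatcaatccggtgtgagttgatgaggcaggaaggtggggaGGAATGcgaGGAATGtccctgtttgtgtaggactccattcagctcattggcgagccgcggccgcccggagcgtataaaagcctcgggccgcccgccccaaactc
ANKRD1: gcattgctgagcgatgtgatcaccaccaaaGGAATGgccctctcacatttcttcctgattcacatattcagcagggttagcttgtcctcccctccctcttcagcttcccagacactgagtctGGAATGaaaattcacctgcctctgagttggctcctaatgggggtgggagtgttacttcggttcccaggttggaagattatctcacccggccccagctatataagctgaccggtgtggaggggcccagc
The matches begin at −169, −104 and −95 in CTGF and at −220 and −128 in ANKRD1.

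Windows from 250 bases before to 50 bases after the start were matched for 7 of the 10 members, with 10 windows in all. CYR61, TEAD1 and TEAD4 were not matched. At least 1 match stood in 6 of the 10 windows, against 14.0% of all 35116 RefSeq windows of this length. At least 2 matches stood in 2 of the 10, against 1.37% of all windows, and CTGF was the member with 3, a number that 0.128% of all windows reach. AMOTL2, AJUBA and AXL each have 2 windows, of which 1 held a match and the other did not, LATS2 had a match at position 10 after its start, and the AMOTL1 window had none. The single matches are shown with 12 bases on each side, for AMOTL2 (chr3:134374499-134374528, minus strand), AJUBA (chr14:22976884-22976913, minus strand) and AXL (chr19:41226531-41226560, plus strand).
AMOTL2: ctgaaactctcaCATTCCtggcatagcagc
AJUBA: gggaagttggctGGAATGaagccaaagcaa
AXL: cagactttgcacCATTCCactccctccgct
The AMOTL2, AJUBA and AXL matches all belong to starts that lie within the longest gene span, downstream of another start of the same gene. The AMOTL1 window also lies at a start within the gene, and the region before its outermost start was not searched. A match is a stretch of letters and not a measured binding site, and the genes were chosen as known targets, so these shares describe the members and test nothing.

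**Figure D2:**
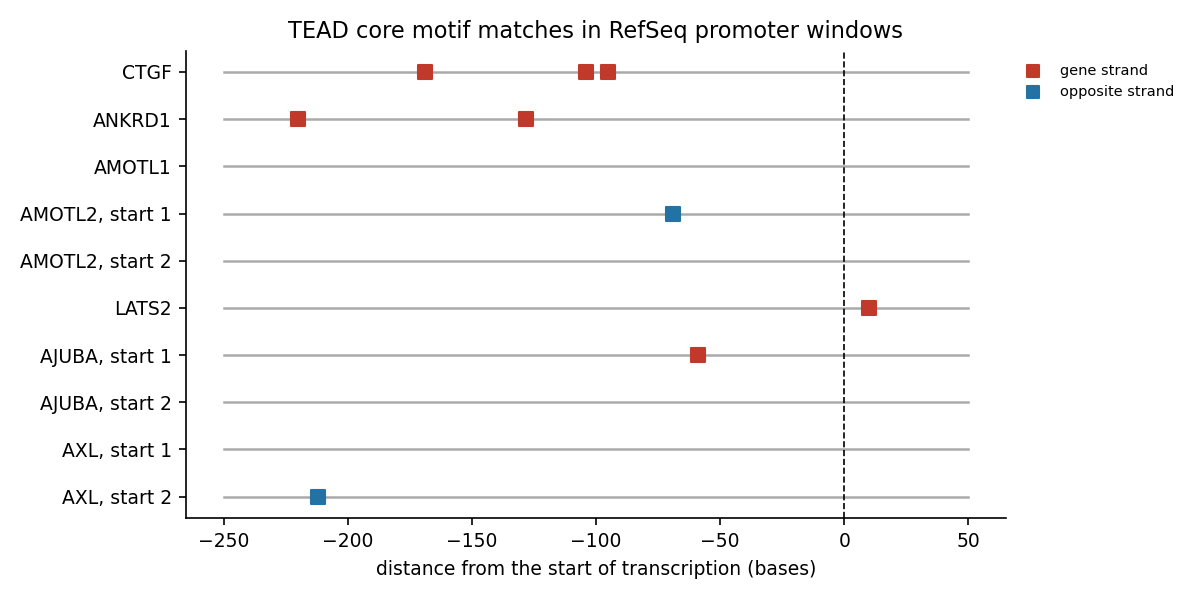
Position of the first base of each match to the TEAD core motif (squares) along the RefSeq promoter windows of 7 members (grey lines), with the distance from the start of transcription in bases on the horizontal axis. CTGF carries 3 matches and ANKRD1 carries 2, and 4 of the 10 windows carry none.

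All 10 members passed the filter on low counts and were tested in all 3 comparisons with edgeR's quasi-likelihood test, fitted over 12394 genes with Benjamini-Hochberg adjustment. A gene was called when its adjusted p was at most 0.05 and its log2 fold change at least 0.5 in size, and only called genes are said to have risen or fallen. Changes are given as log2 fold change ± SE from this fit, and the adjusted p values named as such below are from the same fit. The comparisons with untreated cells share the untreated libraries, so their results are not independent.

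EGF changed 3 of the 10 target genes, and they did not move in 1 direction. AXL and AMOTL1 rose and CYR61 fell, whereas CTGF, ANKRD1, AMOTL2, LATS2, AJUBA, TEAD1 and TEAD4 were not called. The 3 calls stand against 36.9% of all genes tested, with 2 of 10 members risen against 15.1% of all genes and 1 fallen against 21.8%, so the share of members called is near the background. At the adjusted p alone 5 members passed, AJUBA and TEAD1 being added, against 66.1% of all genes. In 6 members the CPM of the EGF-treated and untreated libraries did not overlap, against 70.4% of all genes. The median log2 fold change of the members was −0.04, next to −0.01 over all genes tested.

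AXL, the receptor for the ligand GAS6, showed the widest change. Its FPKM in untreated replicates 1, 2 and 3 was 4.68, 4.47 and 5.74, and with EGF it was 14.05, 13.93 and 13.78. Every EGF-treated library thus exceeded every untreated one, and the EGF-treated libraries lay closer together than the untreated ones. The level rose from 22.5 ± 3.09 to 66.5 ± 0.911 CPM, a log2 fold change of 1.57 ± 0.09 or 2.96-fold (adjusted p = 1.46e-08, edgeR). The expected counts of AXL were not whole in 7 of the 9 libraries, as happens when fragments fit more than 1 gene, and its deposited length (an average over 3 transcripts) varied by 4.48% between libraries.

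AMOTL1, an angiomotin that tethers YAP at junctions, rose as well. It stood at 13.45, 12.23 and 13.76 FPKM in untreated cells and at 18.28, 20.09 and 19.05 FPKM with EGF. The groups did not overlap, and the log2 fold change was 0.60 ± 0.07, or 1.52-fold (adjusted p = 7.45e-06, edgeR). With upper-quartile scaling in place of TMM the log2 fold change was 0.498, just under the limit for a call. That scaling moved the median of all genes to −0.118, and relative to this median AMOTL1 stood at 0.615.

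CYR61 was the member that fell. Its expected counts were 1314, 1320 and 1298 in untreated cells and 836, 690 and 792 with EGF. The untreated libraries agreed closely and all lay above the EGF-treated ones. The level fell from 63.4 ± 1.42 to 38.2 ± 3.52 CPM, a log2 fold change of −0.73 ± 0.09 and a level 1.66-fold lower (adjusted p = 1.86e-05, edgeR).

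Its relative CTGF did not follow. CTGF had 97, 95 and 102 counts in untreated cells and 102, 90 and 87 with EGF, and the groups overlapped. The log2 fold change was −0.04 ± 0.17, with a 95% interval from −0.40 to 0.32 that does not reach the fall of CYR61. ANKRD1 had 59, 53 and 69 counts in untreated cells and 42, 59 and 60 with EGF, again with overlap, and its interval of −0.58 to 0.31 leaves room for a change of the size that was called elsewhere.

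The feedback genes LATS2 and AJUBA were not called with EGF. LATS2 stood at 6.51, 6.54 and 6.15 FPKM in untreated cells and at 5.63, 5.54 and 5.86 FPKM with EGF, without overlap, but its log2 fold change of −0.11 ± 0.08 did not pass (adjusted p = 0.212, edgeR). With upper-quartile scaling it was −0.217 (adjusted p = 0.0276, edgeR), still under the fold limit, and −0.099 relative to the median of all genes. Without scaling factors the adjusted p was 0.0664 in edgeR. AJUBA stood at 43.97, 43.53 and 44.18 FPKM in untreated cells and at 36.39, 37.59 and 39.16 FPKM with EGF. Its log2 fold change of −0.17 ± 0.05 passed the adjusted p (0.0127, edgeR) and not the fold limit, as did that of TEAD1 in the other direction, at 0.33 ± 0.05 (adjusted p = 0.000166, edgeR). TEAD1 stood at 13.68, 13.28 and 14.12 FPKM in untreated cells and at 17.21, 15.74 and 16.53 FPKM with EGF, so that these small shifts were seen in every library.

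AMOTL2 and TEAD4 were spread widely among the EGF-treated libraries. AMOTL2 stood at 48.97, 48.01 and 48.68 FPKM in untreated cells but at 39.79, 61.95 and 51.73 FPKM in EGF replicates 1, 2 and 3. TEAD4 stood at 23.56, 23.3 and 24.69 FPKM in untreated cells and at 26.56, 18.9 and 21.19 FPKM with EGF. EGF replicate 1 was thus the lowest of its group for AMOTL2 and the highest for TEAD4, and EGF replicate 2 the reverse. The log2 fold changes were 0.14 ± 0.11 for AMOTL2 and −0.04 ± 0.11 for TEAD4, and each changed sign without EGF replicate 2, to −0.015 and 0.070. Without EGF replicate 1, AMOTL2 reached 0.29 with an adjusted p of 0.00298 in edgeR, still under the fold limit.

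**Figure D3:**
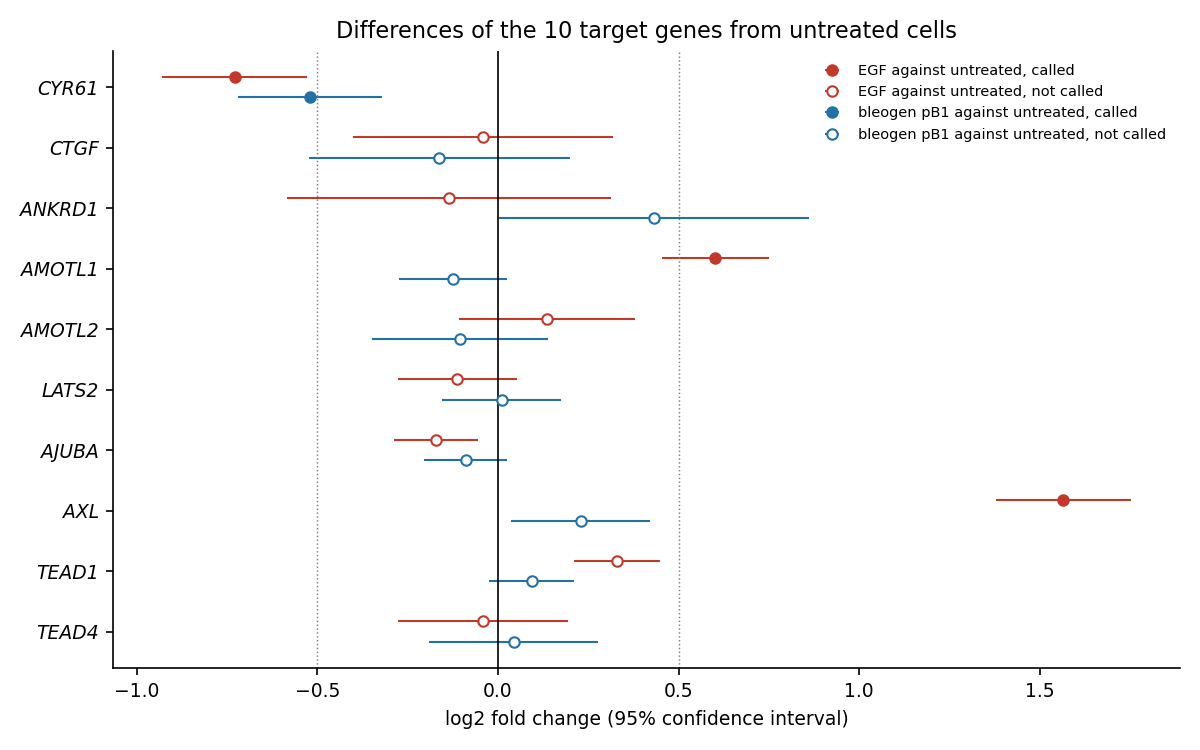
Log2 fold change of the 10 target genes against untreated cells (horizontal axis, with 95% confidence intervals) for EGF (red) and bleogen pB1 (blue), with filled points for called genes and dotted lines at the fold limits of −0.5 and 0.5. AXL and AMOTL1 with EGF lie to the right of the upper limit, and CYR61 lies to the left of the lower limit for both treatments.

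Bleogen pB1 changed 1 of the 10 target genes: CYR61 fell. The 1 call stands against 1.48% of all genes tested, with 0 of 10 members risen against 0.218% and 1 fallen against 1.26%. At the adjusted p alone the count was again 1, against 4.11% of all genes. The groups did not overlap in 5 members (CYR61, AMOTL2, AJUBA, AXL and TEAD1), against 29.1% of all genes. The median log2 fold change of the members was −0.04, next to −0.0010 over all genes.

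CYR61 had 1032, 824 and 964 counts with bleogen pB1, all below the 1298 to 1320 of untreated cells. The level fell from 63.4 ± 1.42 to 44.2 ± 5.59 CPM, a log2 fold change of −0.52 ± 0.09 and a level 1.43-fold lower (adjusted p = 0.00749, edgeR). The estimate is close to the fold limit, and leaving out bleogen pB1 replicate 2, the lowest of its group, gave −0.43 and no call, with an adjusted p of 0.0268 in edgeR. Replicate 1, the nearest of that group to the untreated level, was still lower than every untreated library.

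No other member was called with bleogen pB1. ANKRD1 had the largest estimate, at 0.43 ± 0.20, with 89, 68 and 94 counts against 59, 53 and 69 in untreated cells, and replicate 2 overlapped the untreated libraries (adjusted p = 0.222, edgeR). AXL stood at 5.77, 5.81 and 5.71 FPKM, with replicate 3 just under the highest untreated library in FPKM, and its log2 fold change was 0.23 ± 0.09 (adjusted p = 0.155, edgeR). AMOTL1 stood at 12.95, 11.12 and 12.42 FPKM and overlapped the untreated libraries, with a log2 fold change of −0.12 ± 0.07.

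The remaining 6 members had estimates between −0.16 for CTGF and 0.09 for TEAD1. Their 95% intervals reached no further than −0.52 for CTGF, −0.35 for AMOTL2, −0.21 for AJUBA, 0.18 for LATS2, 0.21 for TEAD1 and 0.28 for TEAD4 on the wider side. CTGF had 99, 71 and 100 counts, so that replicate 2 alone lay below the untreated libraries. A log2 fold change of the size seen for AXL or AMOTL1 with EGF lies outside all of these intervals.

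In the direct comparison of EGF with bleogen pB1, whose doses differ, AXL and AMOTL1 were higher and ANKRD1 was lower in EGF-treated cells. These 3 of 10 members stand against 28.8% of all genes, with 2 higher against 10.8% and 1 lower against 18.0%. At the adjusted p alone 4 members passed, TEAD1 being added, against 58.2% of all genes, and the groups did not overlap in 4 members against 62.4%. AXL was 2.53-fold higher with EGF (log2 fold change 1.34 ± 0.09, adjusted p = 7.52e-08, edgeR) and AMOTL1 1.65-fold higher (0.73 ± 0.07, adjusted p = 2.45e-06, edgeR). TEAD1 differed by 0.24 ± 0.05 (adjusted p = 0.00254, edgeR).

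CYR61 was not called between the 2 treatments. The log2 fold change between them was −0.21 ± 0.09, with a 95% interval from −0.41 to −0.01 (adjusted p = 0.0710, edgeR). The estimate stayed negative and under the fold limit in every alternative run for it, while the adjusted p ranged from 0.00987 to 0.282. It was under 0.05 with upper-quartile scaling (0.0170) or no scaling factors (0.0186) in edgeR, with limma on log2(FPKM + 1) (0.0206, and 0.0183 with a filter on FPKM) or log2(FPKM + 0.1) (0.0193), with the replicate number as a block (0.0460), and without EGF replicate 1 (0.0265) or bleogen pB1 replicate 2 (0.00987). The ANKRD1 call, at −0.57 ± 0.20 (adjusted p = 0.0275, edgeR), rested on 42 to 60 counts with EGF and 68 to 94 with bleogen pB1. It was lost without EGF replicate 1 (−0.42), without bleogen pB1 replicate 1 (−0.51, adjusted p = 0.0802) and without bleogen pB1 replicate 3 (−0.47), all by edgeR, and DESeq2 gave an adjusted p of 0.0516. Exact two-sided permutation tests of single members over 3 against 3 libraries cannot go below p = 0.1, and every called member reached that value.

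Among the coactivators and TEAD partners, 5 of 7 genes were called with EGF, against 36.9% of all genes. WWTR1 rose, VGLL1, VGLL3, TEAD2 and TEAD3 fell, and YAP1 and VGLL4 were not called. WWTR1, which encodes TAZ, had 22.93, 21.22 and 21.84 FPKM in untreated cells and 49.09, 46.59 and 46.99 FPKM with EGF, more than a doubling in every library (log2 fold change 1.17 ± 0.06, 2.26-fold, adjusted p = 8.17e-09, edgeR). YAP1 had 40.11, 38.37 and 41.91 FPKM in untreated cells and 39.59, 38.77 and 38.82 FPKM with EGF. The groups overlapped, and the 95% interval of the YAP1 log2 fold change ran from −0.09 to 0.13 around an estimate of 0.02, whose sign turned with upper-quartile scaling (−0.084) and without scaling factors (−0.037). With bleogen pB1, WWTR1 stood at 24.22, 27.82 and 25.9 FPKM, above every untreated library, but its log2 fold change of 0.22 ± 0.06 did not pass (adjusted p = 0.0578, edgeR). With single libraries left out it ranged from 0.17 to 0.27, with adjusted p values of 0.0178 to 0.237 in edgeR. It was called in 0 of 9 such fits. With bleogen pB1, 0 of the 7 genes were called by edgeR, DESeq2 or limma, with 2 at an unadjusted p under 0.05 in edgeR, against 22.2% of all genes.

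Because these genes work as families, their shares within a family were computed per library from the FPKM. The WWTR1 share of the summed FPKM of YAP1 and WWTR1 was 35.4% ± 1.07 without treatment, 54.9% ± 0.406 with EGF and 38.3% ± 1.33 with bleogen pB1 (SD, n = 3). WWTR1 was thus the less abundant of the pair in untreated and bleogen pB1-treated cells and the more abundant in all 3 EGF-treated libraries. Each of these shares and the others below that differed without overlap gave an exact permutation p of 0.1, the smallest that 3 against 3 allows.

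Within the TEAD factors, TEAD1 made up 22.7% ± 0.672 of the summed FPKM in untreated cells and 31.3% ± 1.67 with EGF. The sum itself was lower with EGF without overlap, at 52.8 ± 5.02 against 60.2 ± 0.814 FPKM, so the larger TEAD1 share also reflects a smaller sum. TEAD4 was the most abundant in every group, with 39.6% ± 1.34 without treatment, 41.9% ± 3.42 with EGF and 41.6% ± 2.52 with bleogen pB1, and these ranges overlapped. TEAD3 had 21.31, 20.01 and 17.93 FPKM in untreated cells and 12.99, 13.12 and 11.71 FPKM with EGF, a fall by 0.58 ± 0.09 on the log2 scale (adjusted p = 0.000118, edgeR). TEAD2, named here after its values were seen, fell by 0.92 ± 0.18 from a low level of 6.02 ± 0.685 CPM.

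The vestigial-like proteins bind TEAD factors in place of YAP, and VGLL1 was the gene of the pathway lists with the largest change. It had 461, 460 and 396 counts in untreated cells and 20, 23 and 24 with EGF, a level 19.1-fold lower (log2 fold change −4.26 ± 0.30, adjusted p = 1.21e-07, edgeR). With bleogen pB1 it had 530, 240 and 393 counts, a spread that spans the untreated libraries. VGLL3 had 525, 532 and 552 counts in untreated cells and 218, 230 and 247 with EGF, a level 2.26-fold lower (adjusted p = 3.31e-07, edgeR).

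**Figure D4:**
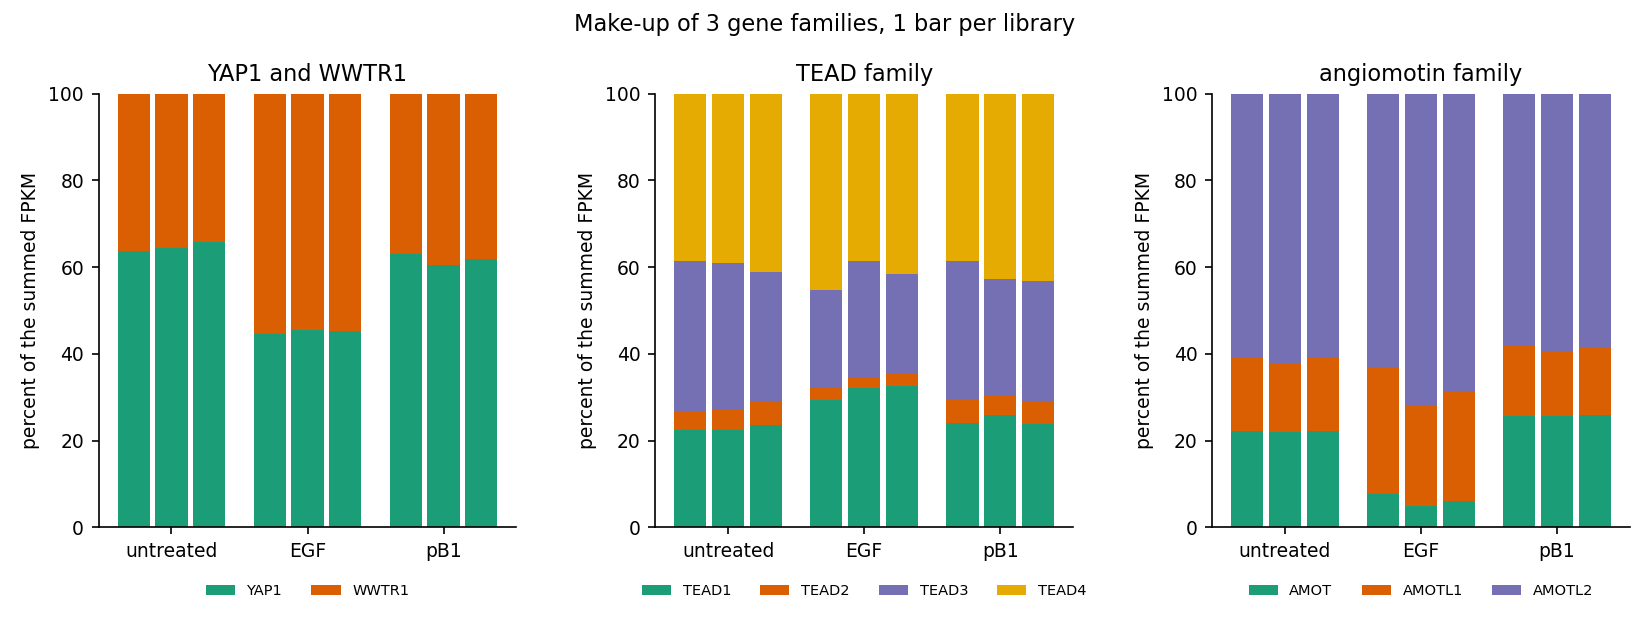
Share of each gene in the summed FPKM of its family (vertical axis, percent), with 1 bar per library and 3 libraries per group, for YAP1 and WWTR1, the TEAD factors and the angiomotins. With EGF the WWTR1 share exceeds that of YAP1, the TEAD1 share grows and the AMOT share shrinks to between 4.79% and 7.77%, whereas the bars of bleogen pB1 lie nearer to the untreated ones.

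AMOT fell with EGF while its paralogue AMOTL1 rose. AMOT, the founding angiomotin, had 17.87, 16.92 and 17.77 FPKM in untreated cells and 4.89, 4.13 and 4.52 FPKM with EGF, a level 3.72-fold lower (log2 fold change −1.89 ± 0.07, adjusted p = 5.06e-10, edgeR). The AMOT share of the summed FPKM of the 3 angiomotins went from between 21.9% and 22.3% to between 4.79% and 7.77%, and that of AMOTL1 from 16.6% ± 0.668 to 25.9% ± 2.90. The summed FPKM of the family overlapped between the groups, at 79.2 ± 1.78 and 74.8 ± 11.6. With bleogen pB1, AMOT stood at 20.41, 19.1 and 20.41 FPKM, above every untreated library, with a log2 fold change of 0.18 ± 0.06 (adjusted p = 0.129, edgeR).

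Of the 13 paralogues and ligands listed, 7 passed the count filter. NOV, the CCN protein closest in name to CYR61 and CTGF (it is also called CCN3), rose with both treatments, opposite to CYR61. It had 29, 29 and 32 counts in untreated cells, 82, 48 and 63 with EGF and 61, 83 and 58 with bleogen pB1, all above the untreated libraries. The log2 fold change was 1.13 ± 0.24 with EGF (adjusted p = 0.00113, edgeR) and 1.12 ± 0.24 with bleogen pB1 (adjusted p = 0.0240, edgeR), and the 95% interval of the difference between the treatments ran from −0.47 to 0.49. The call with EGF held with any 1 library left out, whereas that with bleogen pB1 held in 4 of 9 such fits, with adjusted p values of 0.00950 to 0.123 in edgeR. It was lost without any 1 of the 3 untreated libraries and without bleogen pB1 replicate 2 or 3. NOV remained far below CYR61 per length, at 0.56 to 0.61 FPKM in untreated cells, and the other CCN genes listed, WISP1, WISP2 and WISP3, had at most 3 counts in any library.

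Among the relatives of AXL, TYRO3 was not called with EGF (0.12 ± 0.09), nor was the ligand gene GAS6 (−0.10 ± 0.07). AXL made up 39.7% ± 4.16 of the summed FPKM of AXL, TYRO3 and MERTK in untreated cells and 64.2% ± 1.89 with EGF, so that the order of AXL and TYRO3 was exchanged. With bleogen pB1 the AXL share was 38.6% ± 2.61 and overlapped the untreated libraries. ANKRD23, a relative of ANKRD1, fell with EGF by 0.96 ± 0.27 on the log2 scale, from 28 to 38 counts down to 14 to 17 counts (adjusted p = 0.00631, edgeR).

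The genes of the core kinase cassette upstream of YAP were not called with either treatment. Of its 7 genes (STK3, STK4, SAV1, LATS1, MOB1A, MOB1B and NF2), 0 were called in any comparison by edgeR, DESeq2 or limma. Of all genes, edgeR called 36.9% with EGF, 1.48% with bleogen pB1 and 28.8% between the treatments. For EGF against untreated cells, 5 of the 7 had an unadjusted p under 0.05 in edgeR, next to 69.1% of all genes. For bleogen pB1 the number was 0, next to 22.2% of all genes. At the adjusted p alone 5 of the 7 were higher with EGF and 0 lower, next to 66.1% of all genes in both directions together. At an unadjusted p under 0.05 in edgeR, 4199 of 12394 genes were higher with EGF and 4361 lower. All genes were thus split between the directions, and these 5 were not. The median log2 fold change over the 7 with EGF was 0.26, next to −0.01 over all genes tested. The largest was STK3, an MST kinase, at 19.27, 19.46 and 19.22 FPKM in untreated cells and 24.43, 27.24 and 25.97 FPKM with EGF (0.48 ± 0.06), and it was called in 1 of 9 fits with a library left out, that without EGF replicate 1. MOB1A had 0.09 ± 0.05, and its sign turned with upper-quartile scaling (−0.011). Of 7 upstream regulators, MAP4K4, a kinase that can activate LATS kinases, rose by 0.75 ± 0.09 and WWC2, a relative of the scaffold KIBRA, by 0.67 ± 0.10 with EGF, and none fell. These 2 of 7 are a smaller share than the 36.9% of all genes called in either direction. As both rose, they are a larger share than the 15.1% of all genes risen. Whether a list of 7 genes differs from the background was not tested, and limma called 1 of the 7. All 7 estimates were above 0, but with upper-quartile scaling those of FRMD6, TAOK1 and TAOK2 changed sign. With bleogen pB1, edgeR, DESeq2 and limma called 0 of the cassette genes and upstream regulators, against only 1.48% of all genes by edgeR. By edgeR 0 of them had an unadjusted p under 0.05, against 22.2% of all genes, and their log2 fold changes lay between −0.20 and 0.13.

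Of a further 16 genes known as YAP and TEAD targets in other cells, 9 were called with EGF, against 36.9% of all genes. They were 3 that rose, against 15.1% of all genes, and 6 that fell, against 21.8%, while 7 were not called, and the median log2 fold change of the 16 was −0.07. NT5E, the surface enzyme CD73, rose 3.16-fold from 21.24 to 23.64 FPKM up to 61.98 to 76.64 FPKM (1.66 ± 0.08, adjusted p = 3.72e-09, edgeR). F3, the gene of tissue factor, rose 2.04-fold from an already high 134.03 to 146.46 FPKM up to 255.02 to 292.38 FPKM (1.03 ± 0.08, adjusted p = 2.04e-07, edgeR). CCDC80, a secreted matrix protein, and RBMS3, an RNA-binding protein, fell by 2.62 ± 0.18 and 2.82 ± 0.22 on the log2 scale. CCDC80 had 771, 790 and 774 counts in untreated cells and 99, 149 and 122 with EGF, and fibroblast marker levels were lowest in the same libraries, a link that was not tested.

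With bleogen pB1, 0 of these 16 genes were called by edgeR, DESeq2 or limma, against 1.48% of all genes by edgeR. By edgeR, 0 passed at the adjusted p alone and 4 had an unadjusted p under 0.05, all lower. Of all genes 22.2% had such an unadjusted p in either direction, with 1447 of 12394 genes higher and 1303 lower. The nearest were NT5E, at 18.03 to 19.52 FPKM against 21.24 to 23.64 FPKM in untreated cells (−0.29 ± 0.08, adjusted p = 0.0531, edgeR), and CCDC80, with 752, 473 and 631 counts (−0.37 ± 0.15, adjusted p = 0.171, edgeR). With single libraries left out the CCDC80 estimate ranged from −0.55 to −0.21, and it was called in 1 of the 9 fits, that without bleogen pB1 replicate 1.

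**Figure D5:**
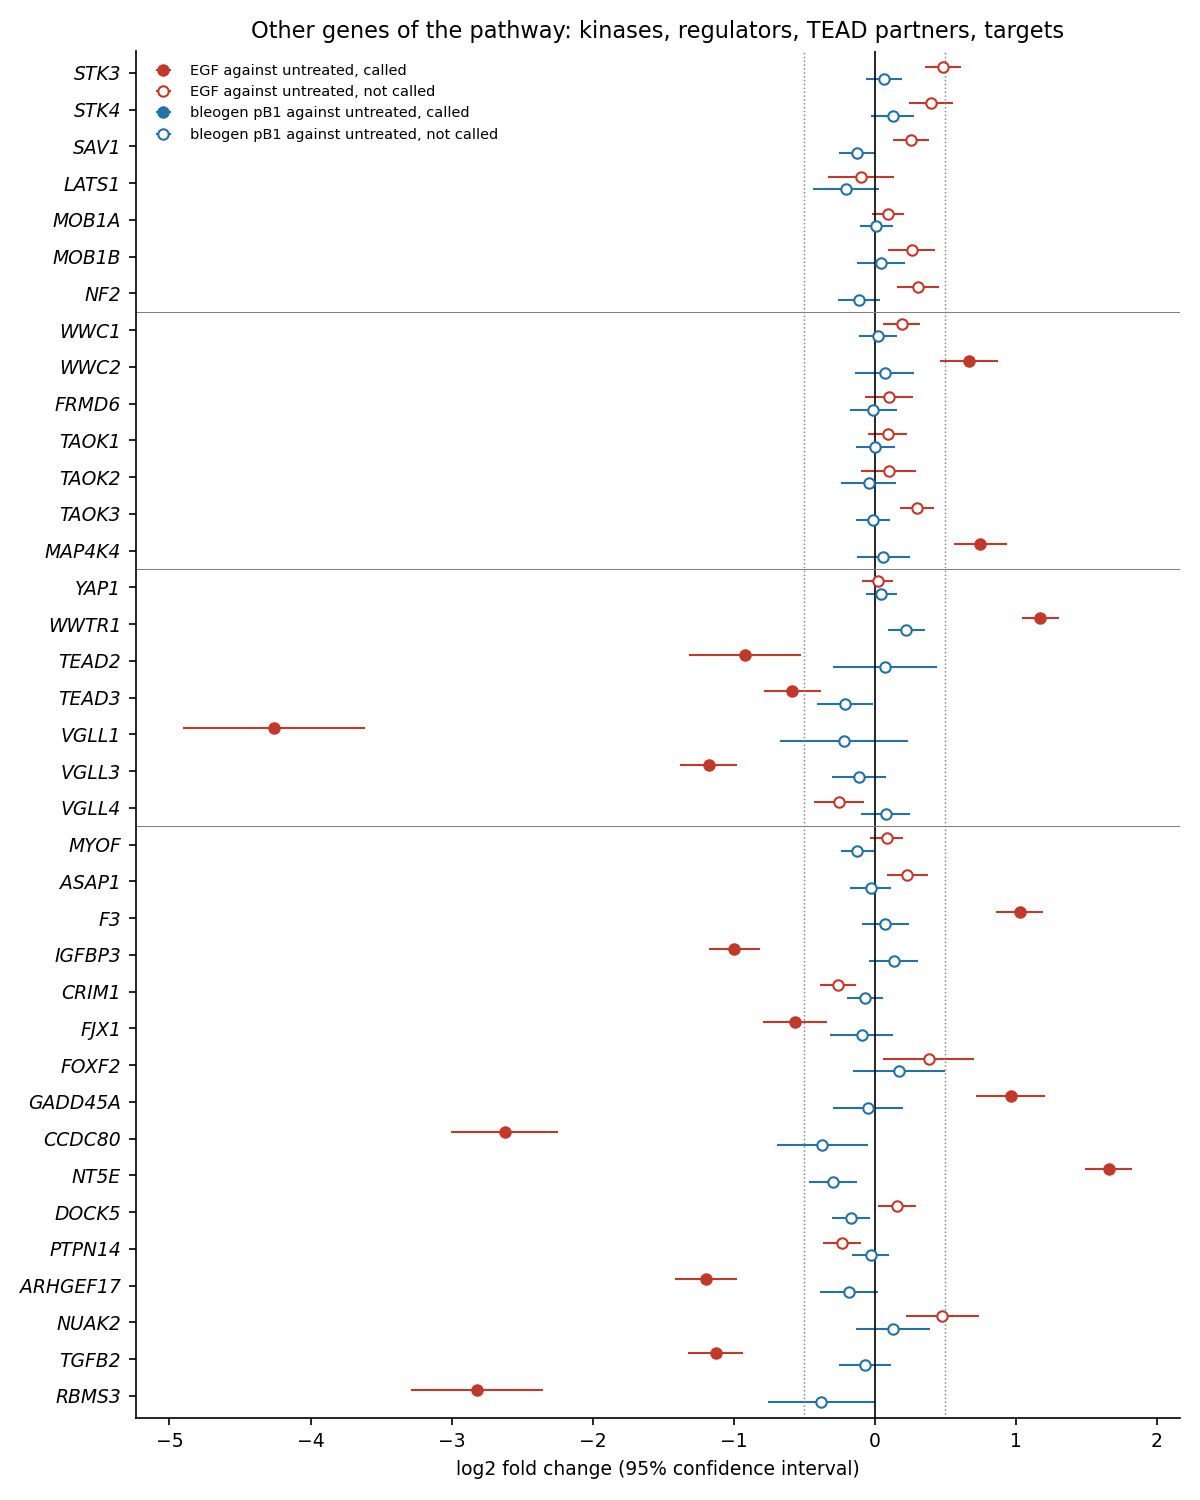
Log2 fold change against untreated cells (horizontal axis, with 95% confidence intervals) of 37 other genes of the pathway for EGF (red) and bleogen pB1 (blue), filled where called. From top to bottom the blocks are the core kinase cassette, the upstream regulators, the coactivators and TEAD partners, and the other target genes, and only EGF has filled points.

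The genes whose pattern over the 9 libraries was most like each member were ranked by Pearson's r of log2 CPM over 10858 genes. These r values describe 9 points that share the same EGF-treated libraries, so a gene that differs with EGF resembles any other that does. For CYR61 the nearest were HPS6 (r = 0.987), MLXIP (0.985) and LMLN (0.984). For AXL they were SYNJ2 (0.996), HS3ST1 and PPP4R1 (0.994 each), for AMOTL1 ERCC1 (0.987), FAM83B and SETBP1 (0.986 each), and for TEAD1 AGO2, NHSL1 (0.994 each) and NOM1 (0.990). For AMOTL2 they were SNAP23 (0.970), PNPLA6 (0.968) and MOK (0.964), for AJUBA RWDD3 (0.962), TMEM128 (0.954) and TSPAN31 (0.949), and for LATS2 KLC3 (0.954), MMP2 (0.936) and ADAMTSL4 (0.919). The members without a call against untreated cells and with few counts had lower r values, with COQ10A (0.936), THSD4 (0.912) and PID1 (0.867) for CTGF and SMYD4 (0.900), PLCG1 (0.893) and LAMTOR3 (0.881) for ANKRD1. TEAD4 lay nearest to ZNF202 (0.947), EI24 (0.925) and NEMF (0.923). The members themselves were left out of the genes ranked, so their likeness to one another was not assessed.

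The members lie on 9 chromosomes, given here on GRCh38 from GENCODE release 44. CYR61 spans chr1:85580761-85584589, CTGF chr6:131948176-131951372, ANKRD1 chr10:90912096-90921087, AMOTL2 chr3:134355347-134375479 and LATS2 chr13:20973036-21061586. AJUBA spans chr14:22971177-22982551, AXL chr19:41219223-41261766 and TEAD4 chr12:2959330-3040676. AMOTL1 (chr11:94706431-94876748) and TEAD1 (chr11:12674421-12944737) share a chromosome but not a neighbourhood. CYR61, CTGF, ANKRD1, LATS2 and TEAD1 are each counted over a single RefSeq transcript, so their length was constant. Among the others it varied between libraries by at most 4.48% (AXL), followed by 2.97% (AJUBA), which is small beside the changes of AXL and CYR61.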

How the data were processed

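Total RNA of the 9 HaCaT samples was sequenced at BGI. The paper names the PureLink kit and a BGISEQ instrument and the labels name RNeasy, DNBSEQ and stranded poly(A) libraries; whether counting used the strand is not given in the sources used here, so overlapping and antisense genes are uncertain. Reads were mapped to GRCh38.p12. The expected counts deposited by the authors estimate fragments per gene without scaling. The FPKM values deposited by the authors divide them by gene length and depth, and the gene length deposited by the authors averages over transcripts. A gene missing from a file was counted as 0.

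Groups came from the sample titles. Expected counts were rounded and tested in edgeR 4.0.16 (R 4.3.3): filterByExpr (12394 genes kept), TMM factors (0.9635 to 1.024), glmQLFit and glmQLFTest on all 9 libraries in 1 fit (6 residual degrees of freedom), Benjamini-Hochberg adjustment. SE was obtained from the log2 fold change and the F statistic. The paper used DESeq2 with the same limits, which is an alternative here (1.42.0), beside limma 3.58.1 on log2(FPKM + 1) or log2(FPKM + 0.1), other scalings, filters and fold rules, fits without single replicates, and a block for the replicate number. Counts were also simulated from the mean levels and sizes of these libraries, with the same fixed spread set for every gene. For EGF against untreated, 186 of 200 genes changed 2-fold, up and down in equal number, were recovered among 12394, with 0 unchanged genes called. The real comparison called 4578 genes, with more falls than rises, so this check does not cover a shift that broad or uneven.

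The members and lists were chosen with earlier results of these data known. Named beside the members are YAP1, WWTR1, every list gene called with bleogen pB1, the up to 4 list genes with the smallest adjusted p among those called with EGF, and the 3 genes nearest to each member (mean of at least 50 counts, prior count 2). Family shares, the alternatives run on the other lists, STK3, MOB1A, TEAD2 and the relatives of AXL were added after the values were seen.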

Additional observations from a re-analysis of the deposited data

How the results depend on the processing

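The number of members called with EGF was 3 under each scaling, filter and tool except upper-quartile scaling and glmTreat (2 each), and was 1 at a limit of 1 and 5 at the adjusted p alone. The count over all genes for EGF was 4578, and 2919 with glmTreat, 1892 at a limit of 1 and 8187 at the adjusted p alone. Of the 4578, 1875 rose and 2703 fell, and with upper-quartile scaling 1396 rose and 3221 fell. For bleogen pB1, the call of CYR61 was lost (0 members) with limma on log2(FPKM + 1), with or without a filter on FPKM (log2 fold change −0.49), with glmTreat, at a limit of 1 and without bleogen pB1 replicate 2. The 183 genes called with bleogen pB1 became 5 with glmTreat, 31 at a limit of 1, 509 at the adjusted p alone and 102 to 436 with 1 library left out, the lowest without untreated replicate 1 or bleogen pB1 replicate 3 and 109 without bleogen pB1 replicate 2. Between EGF and bleogen pB1 the members called were 1 at a limit of 1 and 2 to 3 with 1 library left out, and the 3564 genes became 2026 with glmTreat, 1458 at a limit of 1 and 7214 at the adjusted p alone. The ANKRD1 call there was lost with limma on log2(FPKM + 1) (−0.41, under the fold limit). LATS2 with bleogen pB1 changed sign with upper-quartile scaling (−0.0067). With 1 library left out, uncalled members ranged across 0: with EGF, CTGF from −0.12 to 0.027, ANKRD1 from −0.21 to 0.0085, AMOTL2 from −0.015 to 0.29 and TEAD4 from −0.19 to 0.070. With bleogen pB1, LATS2 ranged from −0.034 to 0.072 and TEAD4 from −0.028 to 0.091, and between the treatments CTGF ranged from −0.025 to 0.21 and TEAD4 from −0.23 to 0.029. The cause of these differences was not tested.

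Whether same-numbered libraries share more than a number is not stated. With the replicate number as a block, 4560, 186 and 3550 genes were called for EGF, bleogen pB1 and EGF against bleogen pB1, with 3, 1 and 3 members, and the log2 fold change of CYR61 with bleogen pB1 was −0.53. The deviations of same-numbered libraries correlated by 0.0039 to 0.045 for EGF and untreated, −0.030 to 0.21 for bleogen pB1 and untreated and 0.027 to 0.056 for EGF and bleogen pB1. Those of differently numbered libraries correlated by −0.076 to 0.041, −0.25 to 0.16 and −0.078 to 0.050 in the same order. With about 100 counts or fewer per library, CTGF and ANKRD1 have SEs of 0.17 to 0.21 on the log2 scale, which limits the size of change that could be detected at this depth.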
